A study of Mus musculus with 6 samples.

Results

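The inducible matrix metalloproteinases are represented here by 6 genes, Mmp3, Mmp8, Mmp9, Mmp10, Mmp12 and Mmp13, out of 49548 genes in the deposited table. They were chosen by name, and each name matched 1 gene of the table. Synovial fibroblasts (SFs), the connective tissue cells of the joint lining, had been grown from ankle joints of 8-week-old hTNFtg mice on a CBA C57BL/6J background, and both groups carried this human TNF transgene, which causes a chronic arthritis. The culture was depleted of CD45+ blood cells by the study, and 3 libraries came from untreated SFs and 3 from SFs kept with 500 μM amisulpride, a blocker of dopamine and serotonin receptors, for 48 hours. The labels say that the controls had no treatment, whereas the methods of the study speak of vehicle. Transcripts were read at their 3′ ends on an Ion Proton instrument, so a high concentration of 1 compound at 1 time in 1 mouse model was measured, and RNA but no enzyme.

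Matrix metalloproteinases are zinc-dependent enzymes that are made as inactive proenzymes and cut the collagens, proteoglycans and other proteins of the extracellular matrix. The inducible members are transcribed at low levels in resting tissue and at high levels after TNF or interleukin 1 reaches fibroblasts, macrophages or chondrocytes, largely through AP-1 and NF-kB transcription factors. In the inflamed joint SFs are a known source of stromelysin 1 and collagenase 3, and osteoclasts and macrophages are known sources of gelatinase B. Stromelysins 1 and 2 are encoded by Mmp3 and Mmp10, collagenases 2 and 3 by Mmp8 and Mmp13, gelatinase B by Mmp9 and the macrophage elastase by Mmp12.

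Of the 6 genes, 5 lie within 296 kb of chromosome 9 on the plus strand, in the order Mmp13, Mmp12, Mmp3, Mmp10 and Mmp8 (mm10). Mmp13 occupies chr9:7272514-7283331, Mmp12 chr9:7344381-7369499, Mmp3 chr9:7445822-7455975, Mmp10 chr9:7502352-7510240 and Mmp8 chr9:7558456-7568485. Mmp9 lies apart, at chr2:164940780-164955850, also on the plus strand. The identifiers in the table were ENSMUSG00000043613 for Mmp3, ENSMUSG00000005800 for Mmp8, ENSMUSG00000017737 for Mmp9, ENSMUSG00000047562 for Mmp10, ENSMUSG00000049723 for Mmp12 and ENSMUSG00000050578 for Mmp13.

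To show what the genes of this locus share in sequence, the 120 bases before the annotated start are given for 4 promoters that hold an AP-1 motif (TGANTCA), with that motif and any TATA box (TATAAA) in capitals, and for Mmp8, which holds neither. The sequences are from RefSeq (GRCm38.p6, the assembly of mm10), on the plus strand, at chr9:7445702-7445821 for Mmp3, chr9:7502222-7502341 for Mmp10, chr9:7272394-7272513 for Mmp13, chr9:7347254-7347373 for the second annotated start of Mmp12 and chr9:7558309-7558428 for Mmp8. Promoters of 5 of the 6 genes were found in the table used, and Mmp9 had no entry. The RefSeq starts from which positions are counted equal the gene starts given above for Mmp3 and Mmp13, and are chr9:7502342 for Mmp10 and chr9:7558429 for Mmp8, ahead of their gene starts in the deposited table.
Mmp3: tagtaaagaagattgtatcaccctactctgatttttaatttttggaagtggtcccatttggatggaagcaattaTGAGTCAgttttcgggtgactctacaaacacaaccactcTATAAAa
Mmp10: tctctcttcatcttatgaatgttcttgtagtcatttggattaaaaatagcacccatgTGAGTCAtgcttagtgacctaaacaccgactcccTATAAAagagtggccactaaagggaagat
Mmp13: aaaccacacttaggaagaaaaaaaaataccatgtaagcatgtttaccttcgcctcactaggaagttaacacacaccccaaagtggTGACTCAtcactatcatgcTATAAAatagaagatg
Mmp12 (second start): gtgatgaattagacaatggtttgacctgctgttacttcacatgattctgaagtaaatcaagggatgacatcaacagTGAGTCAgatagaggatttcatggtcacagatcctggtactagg
Mmp8: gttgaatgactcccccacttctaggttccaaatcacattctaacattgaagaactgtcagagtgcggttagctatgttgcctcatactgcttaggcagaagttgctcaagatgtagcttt

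In Mmp3 the AP-1 match was TGAGTCA, 46 to 40 bases before the start, and the TATA match ended 2 bases before it. In Mmp13 the match was TGACTCA, 35 to 29 bases before the start, with TATAAA from 16 to 11 bases before it. Mmp10 had TGAGTCA from 63 to 57 and TATAAA from 29 to 24 bases before the start. The second start of Mmp12, which lies inside the gene model, had TGAGTCA from 44 to 38 bases before it and no TATAAA, and its first start had neither motif in this window. Both strands were searched, and the AP-1 and TATA matches did not overlap each other. Over all 32851 promoters of the same length, 3.41% held TGANTCA, 6.34% held TATAAA and 0.359% held both. Among 13 other metalloproteinase genes with a promoter listed there, 4 held TGANTCA in this window, namely Mmp1a, Mmp1b, Mmp7 and Mmp20, which lie in the same locus. An ETS motif (AGGAAG), found in 16.3% of promoters at this length, occurred among the printed stretches in Mmp13 alone, from 109 to 104 and from 62 to 57 bases before the start. A loose NF-kB motif (GGG, any 5 bases, CC) occurred in 30.9% of promoters and in none of the 5 stretches printed. A match is a description of letters and says nothing of binding.

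The members' values in the 6 libraries answered whether amisulpride-treated SFs differed in these transcripts. The 3 abundant genes, Mmp3, Mmp9 and Mmp13, were lower after amisulpride, by 3.46, 3.26 and 2.49 times on the log2(normalised count + 1) scale. Mmp12 was low in both groups without a difference that passed the test, and Mmp10 and Mmp8 were near the limit of detection. A value is a normalised count, that is, a read count scaled by the authors with 1 factor for each library. A gene was tested if it reached 10 in at least 3 of the 6 libraries, and 4 of the 6 genes did so, with 10 or more in all 6 libraries. Calls follow the limits of the study, which asked for a log2 fold change of 1 or more in either direction and a p under 0.05 before adjustment (here from limma), and these are called the study thresholds. Of the 4 genes tested, 3 were lower past these thresholds, against 3.01% of the 12614 genes tested that were lower past them and 2.69% that were higher. The members were chosen with earlier results of these data known, so these shares describe the genes and are no independent support. None of the 4 reached an adjusted p under 0.05 (limma, Benjamini-Hochberg over all genes tested), where 0.19% of all genes were lower, while 3 had an unadjusted p under 0.05. The block on replicate number rests on a pairing inferred from shared deviations in these data, since the labels do not name the animals. With this block, 3 of the 4 had an adjusted p under 0.05 (limma), against 1.05% of all genes lower at that limit. Without amisulpride replicate 3, a shallow library that stood apart from the other 5 on the first principal component (73.9 against -38.2 to 10.4), the number was 2, namely Mmp3 and Mmp9, against 0.565% of the 12382 genes tested there that were lower at that limit.

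**Figure D1:**
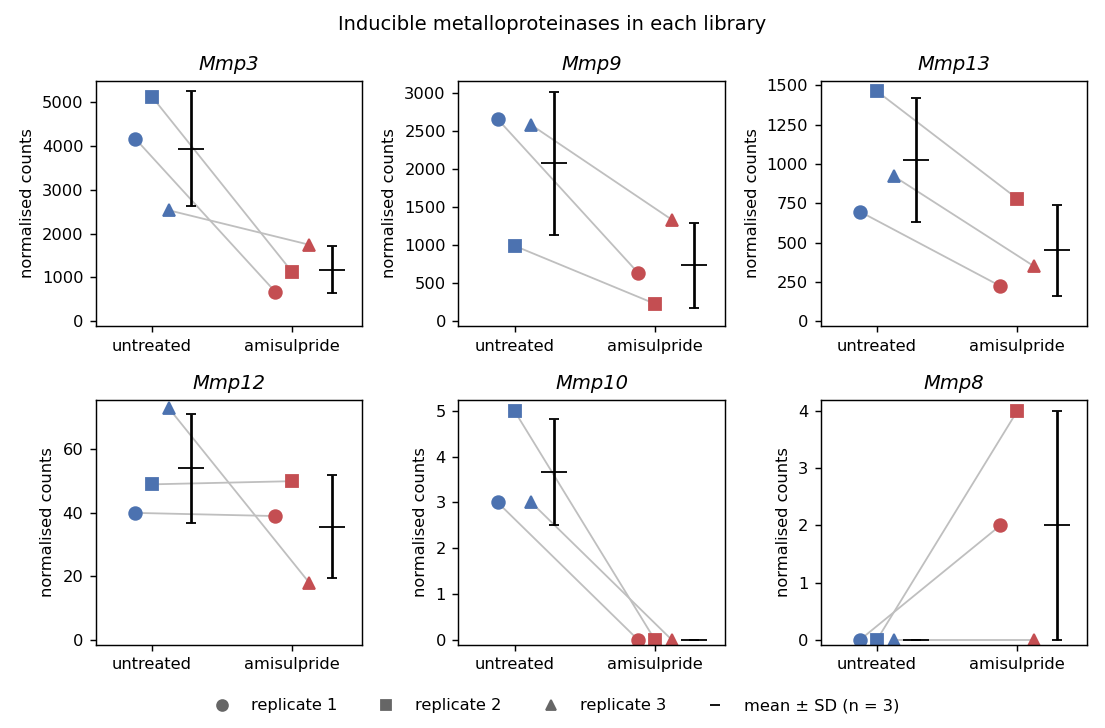
Normalised counts of the 6 genes (vertical axis, a separate linear scale for each gene) in untreated and amisulpride-treated libraries, with the symbol giving the replicate number, grey lines joining libraries of the same number and bars giving the mean ± SD (n = 3). The lines of Mmp3, Mmp9 and Mmp13 all descend, those of Mmp12 descend clearly for replicate 3 alone, and Mmp10 and Mmp8 stay at 5 or fewer. All 3 pairs were lower in 17.8% of all genes tested.

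Stromelysin 1, the product of Mmp3, cuts proteoglycans and fibronectin and activates the proenzymes of collagenases and gelatinase B. Mmp3 had 4166, 5120 and 2530 normalised counts in untreated libraries 1 to 3 and 666, 1118 and 1745 in amisulpride libraries 1 to 3. The groups did not overlap, with untreated replicate 3 the lowest of its group and amisulpride replicate 3 the highest of its own, and 8.66% of all genes tested lay lower without overlap. The mean went from 3938.7 ± 1309.9 to 1176.3 ± 542.0 normalised counts (SD, n = 3). The log2 fold change was -1.79 ± 0.37 (SE), with a 95% interval of -2.61 to -0.97, and limma gave an adjusted p of 0.0764, with the 84th lowest p of all genes. With the replicate block the adjusted p (limma) was 0.0091. Between libraries of the same number the log2 difference was -2.64, -2.19 and -0.54, so the third pair differed least. Mmp3 passed the study thresholds with each library left out in turn, at log2 fold changes of -2.13 to -1.44. Of the 31-base words in its last 500 bases, 4.89% also occur in the pseudogene Gm15242, so a small part of its reads could have been assigned to either gene.

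Stromelysin 2, encoded by Mmp10 46.4 kb downstream of Mmp3, acts on a similar range of substrates. Mmp10 had 3, 5 and 3 normalised counts in the untreated libraries and 0 in every amisulpride library, which corresponds to about 12 reads against 0. The values did not overlap, but the gene did not enter the test, and 2 of the 3 untreated libraries lay above the floor of 3 reads, the most that a count of 0 allows. This floor was 2.69 to 5.37 normalised counts in the amisulpride libraries and the untreated mean was 3.67, so no fold is given. With no filter on low values Mmp10 passed the study thresholds, at a log2 fold change of -2.19 and an adjusted p of 0.178 (limma), so that 4 members were called.

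Collagenase 3, the product of Mmp13, cleaves fibrillar collagen, above all the type II collagen of cartilage. Mmp13 had 696, 1462 and 922 normalised counts in untreated libraries 1 to 3 and 223, 779 and 349 in amisulpride libraries 1 to 3. The groups overlapped, since amisulpride replicate 2 lay above untreated replicate 1, and replicate 2 was the highest of both groups. The mean was 1026.7 ± 394 in untreated and 450.0 ± 292 in treated libraries (SD, n = 3). The log2 fold change was -1.31 ± 0.42 (SE), with a 95% interval of -2.24 to -0.38, at adjusted p = 0.254 (limma), and at adjusted p = 0.0105 with the replicate block. The 3 pairs of equal number differed by -1.64, -0.91 and -1.40 on the log2 scale, all in one direction. Of all genes tested, 17.8% were lower in all 3 pairs. Of the libraries, 2 decided whether the study thresholds were met, since the unadjusted p rose to 0.05 or more without untreated replicate 2 (log2 fold change -1.03) and without amisulpride replicate 1 (-0.91).

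Collagenase 2, the product of Mmp8, is stored in granules of neutrophils. Mmp8 was listed at 0 in the 3 untreated libraries and at 2, 4 and 0 in the amisulpride libraries, about 5 reads in all. No library lay above its floor of 3 reads, and the gene was not tested. Of 12 neutrophil markers, 4 (S100a9, Ly6g, Ngp and Mpo) were at 0 in every library. Of the 12, 3 entered the test, and they did not go one way. These were Elane at 875 to 1610 normalised counts over the 6 libraries, Cxcr2 at 37 to 86 and Camp at 5 to 51. Their log2 fold changes were -0.11, 0.37 and -1.51.

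Gelatinase B, the product of Mmp9, degrades denatured collagen and type IV collagen. Mmp9 had 2658, 992 and 2581 normalised counts in untreated libraries 1 to 3 and 638, 230 and 1337 in amisulpride libraries 1 to 3. The groups overlapped, since amisulpride replicate 3 lay above untreated replicate 2, and replicate 2 was the lowest of both groups. The mean was 2077 ± 940 in untreated and 735 ± 560 in treated libraries (SD, n = 3). The log2 fold change was -1.70 ± 0.56 (SE), with a 95% interval of -2.94 to -0.47, at adjusted p = 0.265 (limma), and at adjusted p = 0.00371 with the replicate block. The pairs of equal number differed by -2.06, -2.10 and -0.95 on the log2 scale, again least in the third. Without untreated replicate 1 the fold change was -1.46, and without amisulpride replicate 2 it was -1.04, so the study thresholds were missed in both cases, with an unadjusted p over 0.05. Without amisulpride replicate 3 it was -2.30, with an adjusted p of 0.0367 (limma).

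The macrophage elastase encoded by Mmp12 degrades elastin. Mmp12 had 40, 49 and 73 normalised counts in untreated libraries 1 to 3 and 39, 50 and 18 in amisulpride libraries 1 to 3. The first and second pairs were nearly equal, with log2 differences of -0.04 and 0.03, and the third differed by -1.96. The log2 fold change was -0.66 ± 0.42 (SE), with a 95% interval of -1.57 to 0.26 (adjusted p = 0.611, limma), so a lowering of the size seen in Mmp13 lies inside the interval. Without amisulpride replicate 3 the fold change was -0.24. The 3′ ends of Mmp12 and Mmp1b, an interstitial collagenase gene on the minus strand, overlap by 1261 bases, and the counting was not stated to use strand, so reads of the pair may be mixed. Mmp1b itself had 9, 13 and 13 normalised counts in untreated and 0, 0 and 5 in treated libraries, too few for the test.

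Levels of different genes were set side by side per kilobase of gene model and as undivided normalised counts, since reads of a 3′ end kit do not increase with length and neither scale is a sure measure of transcript number. In untreated SFs Mmp3 had the highest mean on both scales, with 2560 ± 851 normalised counts per kb (SD, n = 3), followed by Mmp9 at 441 ± 200 and Mmp13 at 416 ± 160 per kb. Mmp9 and Mmp13 could not be ordered, since their libraries spanned 211 to 565 and 282 to 593 per kb and overlapped undivided as well. Undivided, Mmp3 and Mmp9 also overlapped, with 2530 and 2581 normalised counts in untreated replicate 3. Mmp12 at 3.70 ± 1.17 and Mmp10 at 2.44 ± 0.768 overlapped per kb, a scale on which Mmp12 is divided by a gene model of 14579 bases, while undivided Mmp12 (40 to 73) lay above Mmp10 (3 to 5) in every untreated library. In treated SFs the per-kb means were 764 ± 352 for Mmp3, 183 ± 118 for Mmp13, 156 ± 119 for Mmp9, 2.45 ± 1.12 for Mmp12 and 0.909 ± 0.909 for Mmp8. The order of Mmp9 and Mmp13 depended on the scale there, with undivided means of 735 and 450.0, and their libraries overlapped on both. The treated libraries of Mmp3 lay above those of both genes per kb but overlapped them undivided.

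The make-up of the whole family differed between the groups. Across the 23 metalloproteinase genes of the table, the 6 inducible genes held 75.0%, 65.7% and 59.9% of the summed normalised counts in the untreated libraries and 31.2%, 36.7% and 51.3% in the treated ones. Gelatinase A, the product of Mmp2 and a constitutive enzyme of fibroblasts, held 15.7%, 28% and 31.6% in untreated and 55.6%, 51.6% and 39.7% in treated libraries. The groups did not overlap in either share. Per kb of gene model the inducible genes held 58.6% to 77.6% in untreated and 29.9% to 51.0% in treated libraries. The Mmp2 values themselves were 1586, 3248 and 3227 against 2798, 3065 and 2670, a log2 fold change of 0.15 with a 95% interval of -0.53 to 0.83. Mmp3 alone took 41.3%, 44.1% and 24.8% of the family in untreated and 13.2%, 18.8% and 25.9% in treated libraries, so amisulpride replicate 3 resembled untreated replicate 3 in this share.

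**Figure D2:**
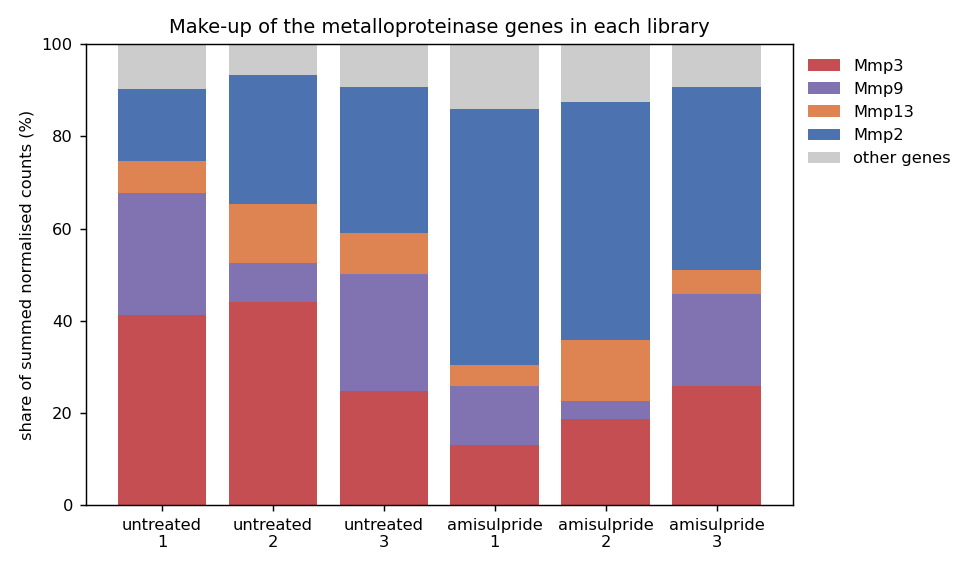
Share of the summed normalised counts of 23 metalloproteinase genes (vertical axis, percent, from 0) in each library, with Mmp3, Mmp9, Mmp13 and Mmp2 drawn separately and the other 19 genes in grey. Mmp2 takes 15.7% to 31.6% of the bar in untreated and 39.7% to 55.6% in treated libraries.

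Among the 17 other metalloproteinases 8 were tested, of which 1 fell and 1 rose past the study thresholds, with a median log2 fold change of -0.38 against 0.00 over all genes tested and -1.51 over the 4 inducible genes tested. The median of these 8 was -0.02 without amisulpride replicate 3 and -0.08 with weights per library. Mmp11, a stromelysin of tissue remodelling, rose from 33, 38 and 54 to 87, 128 and 109 normalised counts, a log2 fold change of 1.37 ± 0.31 (adjusted p = 0.0965, limma), with an adjusted p of 0.0257 in the blocked fit. Mmp17, a membrane-anchored enzyme, went from 26, 16 and 22 to 5, 5 and 13, a log2 fold change of -1.46 ± 0.53 (adjusted p = 0.316, limma), and missed the thresholds without untreated replicate 1, untreated replicate 3 or amisulpride replicate 1 (-1.31, -1.43 and -1.26). Mmp20, Mmp21, Mmp24 and Mmp25 were listed at 0 in all libraries. With no filter on low values, 3 genes of this list passed the study thresholds against 2.

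Tissue inhibitors of metalloproteinases (TIMPs) bind the active enzymes, and Reck is a membrane-bound inhibitor. Of 7 inhibitor genes 4 were tested, 1 rose past the study thresholds and none fell, with a median log2 fold change of 0.63. Reck rose from 37, 78 and 56 to 123, 146 and 141 normalised counts, a log2 fold change of 1.31 ± 0.31 (adjusted p = 0.117, limma), with an adjusted p of 0.0266 in the blocked fit. Timp3 had 2464, 3313 and 2047 against 5848, 5485 and 4105 normalised counts, a log2 difference of 0.99 just under the threshold, and its gene overlaps Syn3 on the other strand. Timp2, the most abundant inhibitor, had a log2 fold change of 0.27 with a 95% interval of -0.37 to 0.92, and Timp1 one of -0.43 with an interval of -1.40 to 0.54. The ratio of Mmp3 to Timp1 normalised counts was 0.816, 0.696 and 0.944 in untreated and 0.133, 0.25 and 0.948 in treated libraries, low in amisulpride replicates 1 and 2 but not in replicate 3. Timp1 itself had 5103, 7352 and 2680 against 5024, 4468 and 1841 normalised counts. It was lowest in replicate 3 of both groups, which raises the ratio there.

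**Figure D3:**
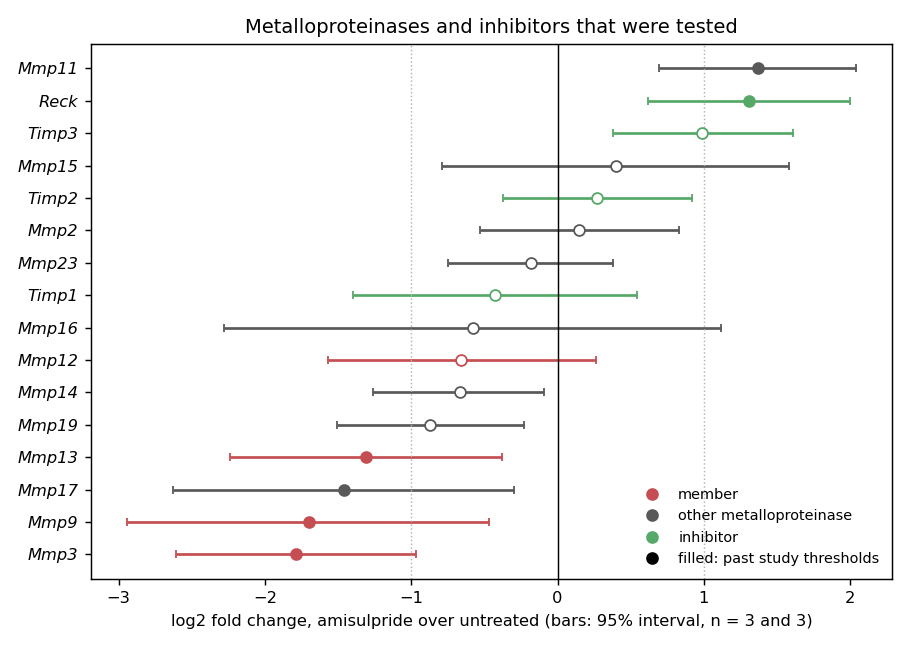
Log2 fold change (horizontal axis, amisulpride over untreated, with 95% intervals, n = 3 in each group) of the 12 metalloproteinases and 4 inhibitors that were tested, filled where the study thresholds were passed. Mmp3 at -1.79 and Mmp9 at -1.70 stand at one end and Mmp11 at 1.37 and Reck at 1.31 at the other, with Mmp2 near 0.

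Proenzymes are opened by other proteases. Of 14 activator genes 7 were tested, 2 fell past the study thresholds and none rose, with a median log2 fold change of -0.39. Leaving out amisulpride replicates 1, 2 and 3 in turn gave a median of -0.78, -0.68 and -0.06. Furin, the convertase that activates membrane-type metalloproteinases inside the cell, fell from 514, 280 and 448 to 184, 182 and 165 normalised counts, a log2 fold change of -1.18 ± 0.27 (adjusted p = 0.109, limma), with an adjusted p of 0.0284 in the blocked fit. Without untreated replicate 1 its fold change was -1.0 and missed the thresholds. Plaur, the urokinase receptor that gathers plasmin formation at the cell surface, fell from 120, 100 and 82 to 52, 37 and 43, a log2 fold change of -1.17 ± 0.29 (adjusted p = 0.138, limma). Ctsb, the most abundant of the list, had a log2 fold change of 0.13.

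Upstream of the enzymes, 10 cytokines known to induce them gave 6 tested genes, of which 2 fell past the study thresholds and none rose, with a median of -1.03. Il11, an IL-6 family cytokine of fibroblasts, fell from 27, 25 and 38 to 6, 3 and 16 normalised counts, a log2 fold change of -1.97 ± 0.57 (adjusted p = 0.208, limma). Mouse Tnf was low, with 27, 16 and 16 against 10, 7 and 7 normalised counts and a log2 fold change of -1.17 ± 0.49 (adjusted p = 0.405, limma), and kept its call in 1 of the 6 comparisons with a library left out. The transcript of the human TNF transgene was not analysed here. Il1b and Il17a were at 0 in every library. Of 12 cytokine receptor genes 11 were tested and none passed the study thresholds (limma, 4 with an unadjusted p under 0.05), with a median of 0.32, or 0.08 to 0.35 with a library left out.

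The transcription factors known to act on these promoters gave 19 tested genes of 20, of which 1 fell and none rose past the study thresholds, with a median log2 fold change of -0.34. The AP-1 genes were led by Junb with 2767, 3367 and 1952 against 3450, 2154 and 1063 normalised counts and Fosl2 with 2639, 2646 and 2428 against 2261, 1728 and 1974, neither past the thresholds. Etv4, an ETS factor, fell from 21, 11 and 11 to 4, 4 and 2, a log2 fold change of -1.80 ± 0.63 (adjusted p = 0.291, limma). It had about 8 reads in the treated group, where 1 library lay above the floor of 3 reads. In 3 of the 6 comparisons with a library left out Etv4 did not pass the filter. It entered the test through the untreated libraries alone, so its direction is tied to the filter. Outside the 6 genes, 235 tested genes had TGANTCA in the 120 bases before a start. Of these, 13 (5.53%) were lower past the thresholds, with a median log2 fold change of -0.05. Among the 8654 tested genes with a promoter in the table, 3.06% were lower. With both TGANTCA and TATAAA in this window, 1 of 13 genes was lower, with a median of 0.03. A link between motif and fold change was not tested.

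Of 20 matrix proteins that these enzymes cut, 16 were tested, 1 fell and none rose, with a median log2 fold change of 0.13. The gene that fell was Spp1, which encodes osteopontin, a bone and inflammation protein cleaved by stromelysin 1, and it went from 3349, 4630 and 4912 to 791, 862 and 1339 normalised counts. Its log2 fold change of -2.13 ± 0.28 had an adjusted p of 0.013 (limma). Col1a1, the most abundant, had 10814, 15684 and 23007 against 17537, 17397 and 35599 normalised counts and did not pass the test.

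No other tested gene in the chromosome 9 locus passed the study thresholds. Mmp1b, which did not enter the test, had 9, 13 and 13 normalised counts in untreated and 0, 0 and 5 in treated libraries, without overlap. Of all genes tested, 8.66% lay lower without overlap. Mmp1b had about 3 reads in the treated group, where no library lay above its floor of 3 reads. Its reads may also be mixed with those of Mmp12, as said above. Within 500 kb of the outermost members the table lists 27 genes, of which 10 were tested, and 7 of those are not inducible metalloproteinases. These 7, Dync2h1, Dcun1d5, Gm10709, Tmem123, Birc2, Birc3 and Yap1, had log2 fold changes between -0.40 (Yap1) and 0.54 (Dync2h1), and none had an unadjusted p under 0.05 (limma).

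Cultured SFs can hold macrophages and osteoclast-like cells, so the markers of these cells were set beside the members, and in bulk libraries fewer cells of a type and less RNA per cell cannot be told apart. All 14 fibroblast markers were tested and none passed the thresholds (limma, 1 with an unadjusted p under 0.05), their sum being 47856 to 62025 normalised counts in untreated and 56010 to 93251 in treated libraries. Of 9 osteoclast markers 7 were tested, all 7 with a negative log2 fold change, as had 6289 of the 12614 genes tested. Ocstamp is among the 7, though its mean was higher in treated (53.7) than in untreated libraries (36.0). Past the study thresholds 2 fell, against 3.01% of all genes tested, and the median of the 7 was -0.85. With 1 library left out this median ran from -1.29 (without amisulpride replicate 3) to -0.28 (without amisulpride replicate 2), and it was -0.42 without untreated replicate 1 or amisulpride replicate 1. Their sum was 1024 to 1770 normalised counts in untreated and 577 to 1242 in treated libraries, and none of the 9 was at 0 in every library. Acp5, the tartrate-resistant acid phosphatase of osteoclasts, fell from 473, 343 and 752 to 90, 58 and 336, a log2 fold change of -2.03 ± 0.54 (adjusted p = 0.165, limma), with an adjusted p of 0.00136 in the blocked fit. Dcstamp, needed for osteoclast fusion, had 63, 12 and 24 against 3, 0 and 20, a log2 fold change of -2.65 ± 0.99 (adjusted p = 0.338, limma), and missed the thresholds without untreated replicate 1 or amisulpride replicate 2 (-2.04 and -1.59). The third pair went the other way in Ocstamp, with 63, 22 and 23 against 9, 3 and 149 normalised counts, and in Atp6v0d2, with 83, 21 and 38 against 32, 15 and 77, and neither passed the thresholds. Ctsk, which fibroblasts also express, was the most abundant marker and had a log2 fold change of -0.34.

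Of the osteoclast markers Mmp9 was most like 3 over the 6 libraries, with a Pearson correlation of log2 values of 0.94 with Acp5, 0.97 with Dcstamp and 0.99 with Itgb3, and of 0.89, 0.95 and 0.99 after the group means were removed. Over the 6 libraries it was lower with the other 4 tested markers, at 0.74 for Ctsk, 0.76 for Ocstamp, 0.76 for Atp6v0d2 and 0.81 for Nfatc1. After the group means were removed these were 0.50, 0.84, 0.93 and 0.98, so Nfatc1 and Atp6v0d2 then lay above Acp5. Genes of other lists reached similar values over the 6 libraries, such as Prg4, the lubricin gene of the joint lining, at 0.89 and Csf1r at 0.88. With the group means removed, macrophage markers ran from -0.28 for Mrc1 to 0.91 for Cd68. These are descriptions over 6 points that share depth and library. The ratio of Mmp9 to Acp5 normalised counts was 5.62, 2.89 and 3.43 in untreated and 7.09, 3.97 and 3.98 in treated libraries, while that of Mmp9 to Itgb3 was 24.8, 21.1 and 28.7 against 14.2, 11.0 and 20.9. The part of osteoclast-like cells in the Mmp9 result was not tested.

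**Figure D4:**
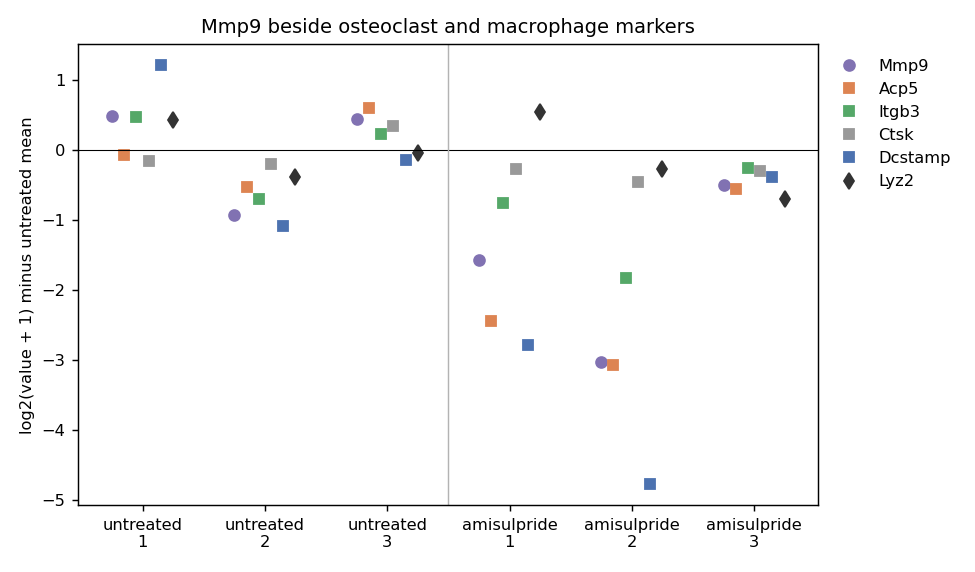
Log2(normalised count + 1) minus the untreated mean (vertical axis) of Mmp9, of the osteoclast markers Acp5, Itgb3, Ctsk and Dcstamp and of the macrophage marker Lyz2 in each of the 6 libraries. Mmp9, Acp5, Itgb3 and Dcstamp are lowest in amisulpride replicate 2. Among treated libraries they are nearest the untreated mean in amisulpride replicate 3, whereas Lyz2 is highest in amisulpride replicate 1. Lyz2 does not stand for all macrophage markers, whose correlation with Mmp9 over the 6 libraries ran from -0.56 (Adgre1) to 0.88 (Csf1r). Tyrobp (0.82) and Fcer1g (0.76) also lay within the range of the tested osteoclast markers (0.74 to 0.99). The undrawn osteoclast markers Ocstamp and Atp6v0d2 had 149 and 77 normalised counts in amisulpride replicate 3 against 23 and 38 in untreated replicate 3.

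Of 17 macrophage markers 16 were tested, 2 fell past the study thresholds and none rose, with a median log2 fold change of -0.04, or -0.37 to 0.33 with a library left out. Their sum was 5955, 3000 and 3677 normalised counts in untreated and 5478, 2983 and 3350 in treated libraries, so it was similar in the libraries of equal number, and none of the 17 was at 0 in every library. Ptprc, which encodes CD45 itself, still had 38, 12 and 18 against 23, 5 and 5 normalised counts after the depletion. Cd14, a co-receptor for bacterial lipopolysaccharide, fell from 121, 69 and 76 to 47, 25 and 13, a log2 fold change of -1.74 ± 0.44 (adjusted p = 0.144, limma), with an adjusted p of 0.012 in the blocked fit. Csf1r, the receptor for the macrophage growth factor CSF1, had 114, 93 and 76 against 41, 23 and 100 and a log2 fold change of -1.01 (adjusted p = 0.456, limma), which kept its call in 1 of the 6 comparisons with a library left out. Lyz2, the most abundant, had a log2 fold change of -0.14. Of the 16 tested markers 8 had a negative log2 fold change. The highest of the others were C1qc (0.95), Adgre1 (0.83) and C1qb (0.75), none past the thresholds. The part of macrophages in the values of Mmp9 and Mmp12 was not tested.

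Of the remaining marker lists, 3 of 12 neutrophil genes were tested and Camp, an antimicrobial peptide gene, fell past the thresholds with a log2 fold change of -1.51, though not without untreated replicate 1, untreated replicate 2 or amisulpride replicate 3 (-1.45, -1.37 and -0.85). The sum of this list, 1160 to 1655 normalised counts in untreated and 964 to 1690 in treated libraries, was mostly Elane. Of 7 osteoblast genes Alpl was tested and fell from 63, 21 and 28 to 8, 4 and 5 normalised counts (log2 fold change -2.41, adjusted p = 0.0925, limma, and 0.0148 in the blocked fit), and the list summed to 26 to 74 against 9 to 27. Of 9 chondrocyte genes that were listed, 3 were tested, of 8 muscle genes 1 and of 7 endothelial genes 0, and none passed the thresholds.

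Across the 6 libraries the inducible genes did not share 1 pattern. The Pearson correlation of log2 values was 0.77 between Mmp3 and Mmp13, 0.62 between Mmp3 and Mmp9 and 0.14 between Mmp9 and Mmp13, and 0.40, 0.03 and -0.77 after the group means were removed. In both groups Mmp13 was highest and Mmp9 lowest in replicate 2. The ratio of Mmp9 to Mmp3 normalised counts was 0.638, 0.194 and 1.02 in untreated and 0.958, 0.206 and 0.766 in treated libraries, so replicate 2 had the lowest ratio in both. Among 7242 protein-coding genes compared over the 6 libraries, the pattern most like that of Mmp3 was shown by Ccl9, a chemokine gene (r = 0.989), then Gm5814 (0.972) and Trim44 (0.967). For Mmp9 these were Bop1 (0.994), Itgb3 (0.988) and Stip1 (0.986), for Mmp12 Tbc1d20 (0.992), Ubtd1 (0.989) and Fmc1 (0.987), and for Mmp13 Tufm (0.973), Nnt (0.972) and Diaph1 (0.966). With 6 points and this many genes, high values are found by search, and they are given as a description.

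**Figure D5:**
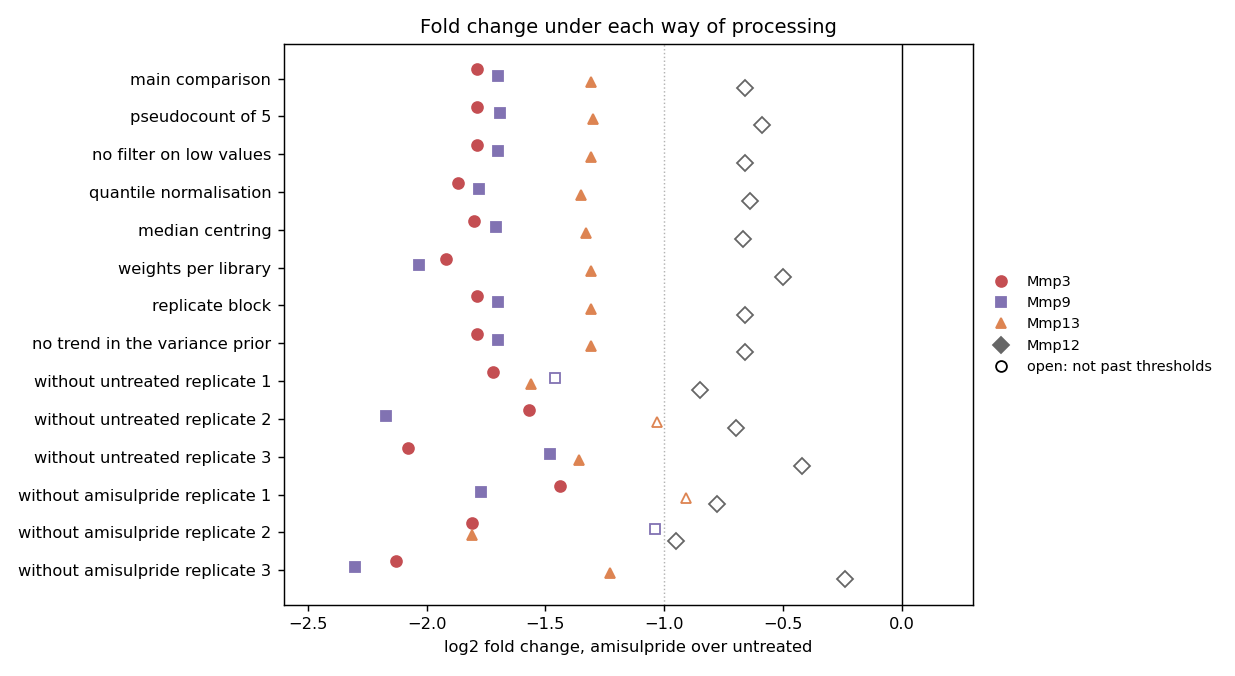
Log2 fold change (horizontal axis, amisulpride over untreated) of Mmp3, Mmp9, Mmp13 and Mmp12 in the main comparison and under 13 other ways of processing or with a library left out, with open symbols where the study thresholds were missed. Mmp3 is filled in every row, Mmp9 and Mmp13 are open in 2 rows each, and Mmp12 is open throughout.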

How the data were processed

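SF transcripts of 3 untreated and 3 amisulpride libraries were sequenced from their 3′ ends. The authors mapped reads to mm10 with TopHat2 and Bowtie2, counted them per gene and normalised with DESeq, at versions not given in the sources used here. The values in the deposited table were treated as a score, since the authors had scaled each library's read counts by 1 factor and rounded them, and they are called normalised counts. The other deposited values used are normalised counts per base of gene model, printed per kilobase. The authors' own p-values, fold changes and group means, and 6 further columns of values per library on a log2 scale, were not used. Normalised counts summed to 3.83 to 4.50 M per library. From the steps of low values, libraries held approximately 2.52 to 4.71 M reads, uncertain in untreated replicate 1. Floors of 3 reads were 2.50 to 5.37 normalised counts and cover counting error only.

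Groups were compared with limma 3.58.1 (R 4.3.3) on log2(normalised count + 1), with moderation along the mean-variance trend, two-sided, for 12614 genes with at least 10 in at least 3 of 6 libraries. This scale understates the change of low genes. The fit was tested on simulated data. An exact permutation test of 3 against 3 libraries cannot go below p = 0.1, so none was used. The study lists biological replicates, and the labels do not name the animals. Libraries of equal number deviated together (r = 0.229, 0.24 and 0.201, against -0.149 to -0.0777 between other numbers), so the numbers were taken as pairs and the blocked value is printed where it changes a call. Deviations from a group mean sum to 0, so the values between other numbers are not independent of those between equal ones. The pairing is thus an inference from these data. Coordinates of the members were the same in GENCODE M21.

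The members and lists were chosen with earlier results of these data known. Named were the members, the genes of the locus, the 3 genes most like each member, and from each list up to 4 genes past the study thresholds and the most abundant. Further genes (such as Timp1, Timp3, Ptprc and Itgb3) were named after their values were seen. Alternatives were a pseudocount of 5, no filter, quantile normalisation, median centring, weights per library, the replicate block, no variance trend and each library left out.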

Additional observations from a re-analysis of the deposited data

How the results depend on the processing

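Under 13 alternatives no fold change of the 4 tested members changed sign. Of 52 alternative values 48 kept their side of the study thresholds and 4 lost it, and Mmp3 kept it throughout. With each library left out, the log2 fold change ranged from -2.30 to -1.04 for Mmp9, which missed the thresholds without untreated replicate 1 (-1.46) or amisulpride replicate 2 (-1.04). For Mmp13 it ranged from -1.81 to -0.91, with the thresholds missed without untreated replicate 2 (-1.03) or amisulpride replicate 1 (-0.91). Against 0 members with an adjusted p under 0.05 (limma, 3 with an unadjusted p under 0.05), there was 1 with quantile normalisation and 1 with weights per library, and 0 to 2 with a library left out. With the replicate block there were 3 members, and 263 genes in all against 36, and the block changed no other call of a member.

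All genes past the study thresholds numbered 719, and 1313 with no filter. The 36 genes with an adjusted p under 0.05 became 57 with a pseudocount of 5, 57 with no filter, 66 with quantile normalisation and 195 with weights per library. With a library left out they were 0 to 120, at 0 without untreated replicate 2 or untreated replicate 3 (1083 and 911 genes with an unadjusted p under 0.05), at 1 without untreated replicate 1, at 17 and 6 without amisulpride replicates 1 and 2 and at 120 without amisulpride replicate 3. Calls over the gene lists went from 15 to 24 with weights per library. The causes were not tested. Without the filter 4 members passed the study thresholds against 3, since Mmp10 did so at a log2 fold change of -2.19 (adjusted p = 0.178, limma), and Mmp8 had one of 1.30 (adjusted p = 0.565, limma), both from at most 12 reads in a group, so depth limits what can be said of them.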
